A study of Mus musculus with 12 samples.

Results

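The 12 libraries described here are liver and subcutaneous fat of male mice that had received either a null vector or a vector for human HKDC1, with 3 libraries for each tissue and vector, and they are all 12 libraries of the series. For every gene, the difference between hHKDC1 OE and null was taken in liver, in fat and between the tissues, so that genes moving in the same way, in 1 tissue or in opposite ways could be told from each other. Of 54532 mouse genes in the count table, 12763 had enough counts to be tested in both tissues, 588 were tested in liver and not in fat, and 3617 were tested in fat and not in liver.

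Mice from The Jackson Laboratory, of a strain not given in the sources used here, were injected in the tail vein at 10 weeks of age, changed to a low-fat diet and studied 16 weeks later. Both groups carried AAV8-TBGp, an adeno-associated virus whose thyroxine-binding globulin promoter acts in hepatocytes, and in the hHKDC1 OE group it drove full-length human HKDC1, a member of the hexokinase family. The promoter was thus aimed at 1 cell type of the liver. Human HKDC1 has no row in the mouse count table, so its level was not analysed here, and mouse Hkdc1 was below the filter on low counts, with 0 to 0.494 CPM (counts scaled to a common library size) over the 12 libraries. The titles and the treatment tag placed 3 libraries of each tissue in the hHKDC1 OE group, whereas the description field calls replicates 2 and 3 of both tissues knockouts. They were kept as hHKDC1 OE. The labels do not say whether liver and fat libraries with the same number came from 1 mouse.

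Liver and fat exchange signals through the blood. Adrenal glucocorticoids act on both organs and induce genes such as Fkbp5 and Tsc22d3, insulin acts on both to promote glycogen and lipid storage, and cytokines make hepatocytes secrete acute-phase proteins such as serum amyloid A. A change that starts in hepatocytes can therefore appear in fat in the same direction, in the opposite direction, or not at all. Subcutaneous fat can also hold lymph nodes, muscle and skin, and in bulk tissue a higher share of a cell type cannot be told apart from more RNA per cell.

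The labelled tissues carried their defining genes, and the fat libraries differed in what else they held. Each library held between 15496019 and 19954971 counts. The summed level of 10 hepatocyte genes was 73636 to 118864 CPM in liver and 913 to 8182 CPM in fat, and that of 8 adipocyte genes was 18850 to 28328 CPM in fat and 8.4 to 29.3 CPM in liver. From the hepatocyte genes, liver RNA was estimated at 2.31%, 2.28% and 7.12% of the null fat libraries and at 2.64%, 0.898% and 1.54% of the hHKDC1 OE fat libraries, and a gene was set apart as predicted from liver RNA where this share accounted for at least 50% of its mean level in either fat group (513 of the 12763 genes). The 11 B cell genes summed to 2.4 to 4.5 CPM in null fat and to 1031, 58.9 and 773 CPM in hHKDC1 OE fat replicates 1, 2 and 3, and the 11 T cell genes to 13.4 to 23.5 CPM in null fat and to 674, 57.9 and 755 CPM in hHKDC1 OE fat. In liver neither list passed 9.2 CPM in any library. The 9 macrophage genes ran from 133 to 222 CPM in null liver, 206 to 396 CPM in hHKDC1 OE liver, 326 to 695 CPM in null fat and 941 to 1519 CPM in hHKDC1 OE fat. In fat the groups did not overlap, and in liver 1 null library reached into the hHKDC1 OE range. The 10 skeletal muscle genes were at 671 to 26756 CPM in null fat and 1286 to 18609 CPM in hHKDC1 OE fat. Genes of lymph node stroma and venules summed to 6.57, 2.67 and 5.40 CPM in null fat and to 404, 29.1 and 342 CPM in hHKDC1 OE fat. The 7 keratinocyte genes summed to 316, 25.4 and 131 CPM in null fat and to 5.87, 18.7 and 5.35 CPM in hHKDC1 OE fat. For both lists the fat groups did not overlap.

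**Figure D1:**
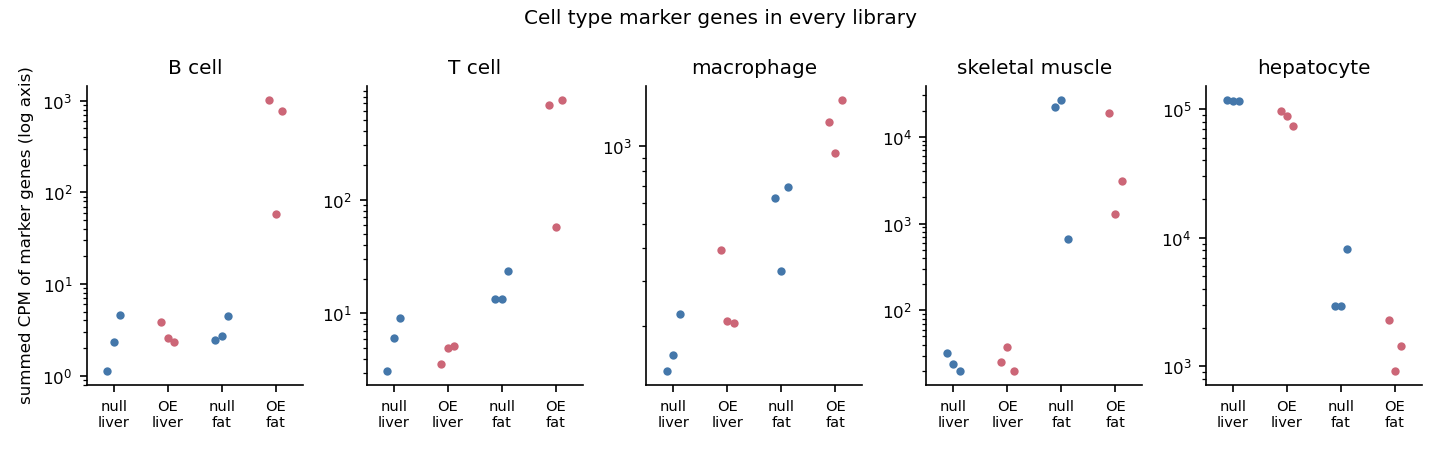
Summed CPM of the marker genes of 5 cell types (log axes) in each of the 12 libraries, with null libraries in blue, hHKDC1 OE libraries in red and replicates 1 to 3 from left to right within a group. B and T cell genes stand 57.9 CPM or higher in the 3 hHKDC1 OE fat libraries and 23.5 CPM or lower in all others, and replicate 2 is the lowest of the 3.

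No gene passed the threshold for a difference in liver alone, in fat alone or between the tissues. With edgeR's quasi-likelihood test and Benjamini-Hochberg adjustment, an adjusted p under 0.05 was reached by 0 of 13351 genes in liver (0.0%), 0 of 16380 in fat (0.0%) and 0 of 17070 for the interaction (0.0%), where the smallest values were 0.0573, 0.133 and 0.139. Before adjustment, p was under 0.05 for 927 genes in liver (6.94% of 13351), 2903 in fat (17.7% of 16380) and 2163 for the interaction (12.7% of 17070). Of the 2163, 1536 had a higher hHKDC1 OE effect in fat than in liver and 627 a lower one, but with each tissue scaled on its own the split was 1259 and 892. In fat the split was 1856 higher and 1047 lower, and 2695 and 400 when counts were scaled by library size alone, a scaling that moved the median log2 fold change of all genes in fat from -0.05 to 0.11. In liver it was 520 higher and 407 lower, and 678 and 232 by library size alone. Other tools made calls where edgeR made none, DESeq2 calling 90 genes in liver, 1303 in fat and 495 for the interaction.

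The mean of the liver and fat effects was the comparison in which genes passed the threshold. It asks whether the average of both effects differs from 0, which a difference in 1 tissue alone can carry. The fit took all libraries as independent. If liver and fat came from the same mice, which the labels do not say, its p-values may be too small. An adjusted p under 0.05 was reached by 7 of 17070 genes (0.041%), and an unadjusted p under 0.05 by 2676 (15.7% of 17070). The acute-phase genes Saa1 and Saa2, the cytokine receptor gene Csf2rb, the immunoglobulin constant gene Ighg1 and the transcription factor gene Junb rose, and St3gal5 and Thbd fell. This count depended on single libraries, since it went from 7 to 1501 genes without hHKDC1 OE fat replicate 2, to 54 without hHKDC1 OE liver replicate 2, and to 0 without null liver replicate 1, null liver replicate 2 or null fat replicate 1. Without hHKDC1 OE fat replicate 2, fat alone went from 0 to 3251 genes and the interaction from 0 to 1211, and without hHKDC1 OE liver replicate 2, liver alone went from 0 to 146.

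Across the 12763 genes tested in both tissues, the liver and fat responses were compared gene by gene. The log2 fold changes in liver and in fat had a Pearson correlation of 0.14 and a Spearman correlation of 0.10 across genes, which are not independent replicates, and 53.0% of genes had the same sign. Without the 513 genes predicted from liver RNA the correlations were 0.09 and 0.09. The responses in fat were wider, with an SD over genes of 0.76 on the log2 scale against 0.43 in liver.

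Genes below p 0.05 in each tissue mostly shared their direction. Among the 12763 genes, 863 (6.76%) had an unadjusted p under 0.05 in liver and 2260 (17.7%) in fat, and 228 had it in both. Of these 228, 92 were higher and 88 lower with hHKDC1 in both tissues, whereas 19 were higher in liver and lower in fat and 29 lower in liver and higher in fat. The 180 genes with a shared direction (78.9% of the 228) were 20.9% of the liver list and 7.96% of the fat list, and the 48 with opposite directions were 5.56% and 2.12%. The share with a common direction was 61.3% (125 and 79 genes) without null liver replicate 1, 68.7% (239 and 109) without hHKDC1 OE liver replicate 2, 70.8% (271 and 112) without hHKDC1 OE fat replicate 2 and 63.9% with limma and sample weights. The opposite count was 27 without hHKDC1 OE liver replicate 3 or null fat replicate 2, and 29 without hHKDC1 OE fat replicate 3. Without genes predicted from liver RNA there were 143 and 48. At an unadjusted p under 0.01 in each tissue, 31 genes shared the direction and 4 did not. The hHKDC1 OE and null libraries did not overlap in 1667 genes in liver (12.5% of 13351) and 3719 in fat (22.7% of 16380), and in both tissues in 414 of the 12763 genes, of which 275 shared the direction.

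**Figure D2:**
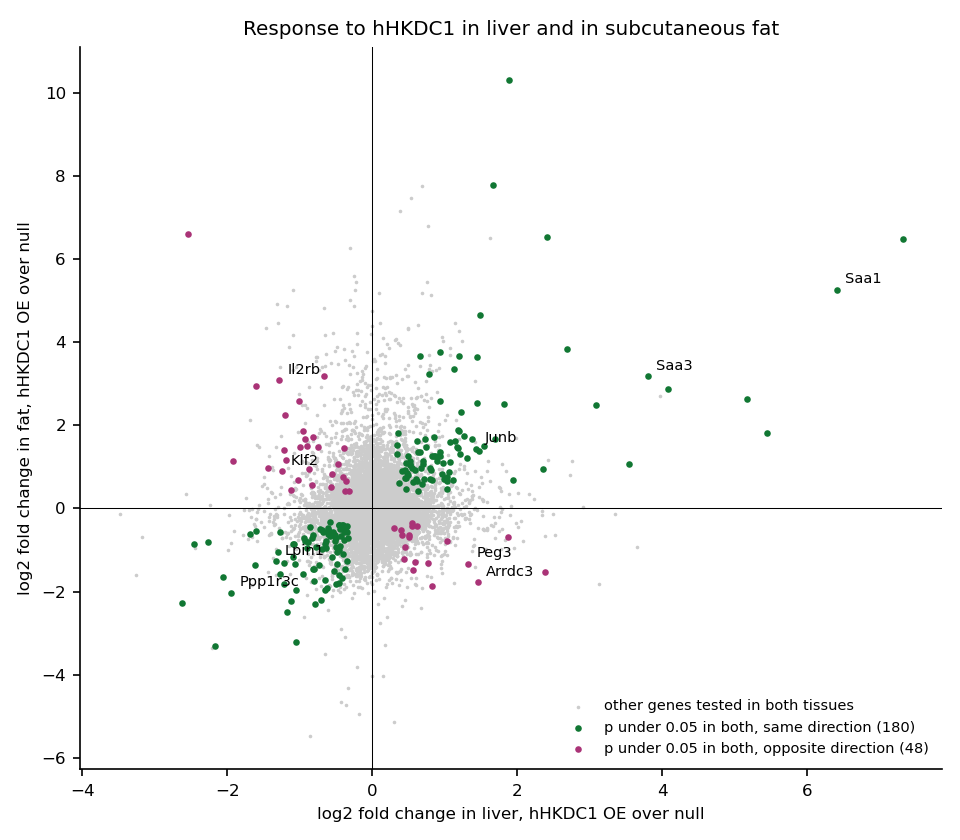
Log2 fold change of hHKDC1 OE over null in liver (x axis) and in fat (y axis) for the 12763 genes tested in both tissues, 1 point per gene. The 180 genes with an unadjusted p under 0.05 in both tissues and a shared direction (green) lie at the upper right and lower left, and the 48 with opposite directions (purple) at the upper left and lower right.

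The genes higher with hHKDC1 in both tissues included inflammatory and myeloid genes. Junb, a subunit of the AP-1 transcription factor, was at 19.4, 19.2 and 24.7 CPM in null liver and 51.3, 72.8 and 46.6 CPM in hHKDC1 OE liver, and at 14.2, 11.2 and 15.0 CPM in null fat and 51.6, 20.0 and 37.8 CPM in hHKDC1 OE fat. No null library reached the lowest hHKDC1 OE library in either tissue. Its log2 fold change was 1.43 ± 0.20 (SE) in liver and 1.44 ± 0.35 in fat, and its mean effect of 1.45 ± 0.21 had an adjusted p of 0.0395 in edgeR. Over 23 alternatives the adjusted p of this effect ran from 5.98e-07 to 0.175, and it was under 0.05 in 11.

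Csf2rb, the signalling chain shared by receptors of myeloid growth factors, was at 3.21, 2.54 and 3.91 CPM in null liver against 5.53, 6.65 and 5.81 CPM, and at 41.3, 42.4 and 41.2 CPM in null fat against 110, 70.2 and 94.7 CPM. The mean effect was 1.04 ± 0.14 (adjusted p = 0.0285, edgeR). Lyz2, the lysozyme of macrophages and neutrophils, was at 27.3, 19.7 and 38.9 CPM in null liver and 107, 41.1 and 49.1 CPM in hHKDC1 OE liver. In fat it was at 211, 97.1 and 196 CPM against 680, 326 and 833 CPM. Its mean effect of 1.56 ± 0.32 did not pass the threshold (adjusted p = 0.0913, edgeR). Of the 9 macrophage genes, 5 had an unadjusted p under 0.05 in each tissue, all higher, and of the 5 Kupffer cell genes, which mark the macrophages of the liver, 5 did in liver and 3 in fat, again all higher, beside 6.94% of all genes in liver and 17.7% in fat in either direction. Summed, the Kupffer cell genes overlapped in liver, at 81.1, 93.7 and 149.7 CPM in null against 320, 150.4 and 148.2 CPM. In fat they were at 9.30, 5.02 and 14.2 CPM in null against 354, 27.4 and 235 CPM, highest in the same 2 libraries as the B and T cell genes. The part of macrophage number in these differences was not tested.

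Saa2 had the highest mean effect of the genes with an unadjusted p under 0.05 in both tissues, and for 2 of the 3 serum amyloid A genes named here the liver RNA in the fat libraries has to be set beside the values. Saa1 was at 21.2, 31.9 and 79.2 CPM in null liver and 6245, 603 and 4410.2 CPM in hHKDC1 OE liver, a log2 fold change of 6.41 ± 0.90. In fat it was at 0.669, 1.98 and 3.75 CPM against 130, 56.6 and 61.7 CPM. The liver RNA estimated in the hHKDC1 OE fat libraries would by itself give a mean of 63.5 CPM of Saa1, against an observed mean of 82.7 CPM. Saa2 was alike, with 55.9 CPM given by liver RNA against 75.8 CPM observed. The mean effects were 5.86 ± 0.67 and 6.93 ± 0.77, both with an adjusted p of 0.0120 in edgeR, and these near-identical neighbours can share reads. Saa3, which is made by macrophages and adipocytes, was at 1.30, 4.69 and 6.51 CPM in null liver against 96.4, 11.1 and 66.9 CPM, and at 3.28, 0.186 and 3.42 CPM in null fat against 20.0, 22.6 and 20.7 CPM. Here liver RNA would give 0.983 CPM of the 21.1 CPM seen in hHKDC1 OE fat. Its mean effect was 3.52 ± 0.60 (adjusted p = 0.0577, edgeR).

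Ighg1 had a mean effect of 6.09 ± 0.84 (adjusted p = 0.0285, edgeR), and its level followed the B cell genes of the fat libraries. It was at 0.122, 0 and 0 CPM in null fat and 108, 5.92 and 60.7 CPM in hHKDC1 OE fat. In liver the libraries overlapped, at 0.803, 0.847 and 1.05 CPM against 4.24, 0.798 and 5.07 CPM. Liver RNA would give 0.0352 of the 0.0405 CPM seen in null fat and 0.057 of the 58.3 CPM seen in hHKDC1 OE fat, and with 2 reads in all in null fat the fitted fold change is no measure of size.

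The other genes named in this direction had mean effects between 0.74 and 2.04 on the log2 scale, none with an adjusted p under 0.05. They were Limd2, a LIM domain protein, Tgm1, a transglutaminase that crosslinks proteins, Il17ra, a subunit of the interleukin-17 receptor, Arap1, a GTPase-activating protein, Khnyn, a cofactor of antiviral RNA decay, and Sh3bp2, an adaptor of immune receptor signalling. Limd2 was the most uneven of them, with 10.5, 10.8 and 14.9 CPM in null liver against 23.5, 20.7 and 18.3 CPM, and 14.3, 15.2 and 19.7 CPM in null fat against 246, 34.3 and 187 CPM, high in the same 2 fat libraries as the B and T cell genes. With these 2 set aside, leaving 1 hHKDC1 OE fat library, the mean effect went from 2.04 to 0.93 for Limd2 and from 1.22 to 0.65 for Il17ra. It also went from 1.79 to 1.18 for Tgm1, from 0.85 to 0.51 for Sh3bp2, from 0.81 to 0.48 for Arap1 and from 0.74 to 0.55 for Khnyn. Khnyn was the most even, with a log2 fold change of 0.72 ± 0.16 in liver and 0.72 ± 0.20 in fat.

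The genes lower with hHKDC1 in both tissues included genes of lipid and glycogen metabolism and of the glucocorticoid response. St3gal5, the synthase of the ganglioside GM3, was at 368, 428 and 446 CPM in null liver and 186, 279 and 176 CPM in hHKDC1 OE liver. In fat it was at 42.4, 41.2 and 40.9 CPM against 17.6, 11.7 and 12.8 CPM, of which liver RNA would give means of 16.2 and 3.62 CPM. Its level fell, with a mean effect of -1.24 ± 0.15 (adjusted p = 0.0140, edgeR), and the adjusted p was under 0.05 in 17 of 23 alternatives. Thbd, which codes for the endothelial anticoagulant thrombomodulin, was at 9.27, 9.84 and 5.08 CPM in null liver against 1.35, 1.97 and 1.07 CPM, and at 145, 101 and 109 CPM in null fat against 53.0, 91.7 and 52.4 CPM. Its mean effect was -1.64 ± 0.22 (adjusted p = 0.0285, edgeR), with -2.46 ± 0.36 in liver and -0.85 ± 0.27 in fat, and the interaction of 1.69 ± 0.44 did not pass the threshold (adjusted p = 0.152, edgeR). Of 5 endothelial marker genes, 3 had an unadjusted p under 0.05 in liver, all lower, and 0 in fat (6.94% and 17.7% of all genes).

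Lpin1, a phosphatidate phosphatase of triglyceride synthesis that is also induced by glucocorticoids, was at 697, 966 and 812 CPM in null liver against 300, 469 and 218 CPM. In fat it was at nearly the same levels, 730, 991 and 886 CPM against 321, 460 and 304 CPM. The log2 fold changes were -1.33 ± 0.27 and -1.26 ± 0.24 (adjusted p of the mean effect = 0.0577, edgeR). Fads1, a desaturase of polyunsaturated fatty acid synthesis, was at 1169.6, 655 and 970 CPM in null liver against 519, 560 and 500 CPM, and at 111, 108 and 118 CPM in null fat against 73.2, 68.3 and 65.1 CPM. Liver RNA would give 36.4 of the mean of 112 CPM in null fat and 8.91 of 68.9 CPM in hHKDC1 OE fat, so the estimated liver RNA was also lower with hHKDC1, at less than the 50% that set genes apart. Fads2, its partner in that pathway, had log2 fold changes of -1.07 ± 0.22 and -1.33 ± 0.28 and is among the genes predicted from liver RNA in fat.

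Ppp1r3c, which targets a phosphatase to glycogen, had the lowest log2 fold changes of the 10 genes named in this direction. It was at 69.2, 94.4 and 51.5 CPM in null liver against 16.4, 31.3 and 8.11 CPM, and at 209, 249 and 64.7 CPM in null fat against 55.6, 43.7 and 29.4 CPM. The log2 fold changes were -1.94 ± 0.42 and -2.02 ± 0.50, with an interaction of 0.01 ± 0.71. The related hepatic subunit Ppp1r3b had -0.94 ± 0.15 in liver and -0.71 ± 0.29 in fat, where it is among the genes predicted from liver RNA. Inmt, an amine methyltransferase, Slc25a32, a mitochondrial carrier of folate or FAD, Dcun1d3, a regulator of cullin neddylation, and Rhobtb1 completed this set with mean effects from -0.95 to -0.56 and no adjusted p under 0.05. For Inmt, liver RNA would give 37.5 of the mean of 87.2 CPM in null fat and 7.63 of 48.4 CPM in hHKDC1 OE fat, under the limit of 50%. By library, hHKDC1 OE fat replicate 2, with the least liver RNA, had the highest Inmt of its group (43.7, 54.5 and 47.0 CPM). In null fat, replicate 3, with the most liver RNA, had the highest Inmt (83.0, 64.4 and 114 CPM). The part of liver RNA in the Inmt difference was not tested.

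Fkbp5 and Tsc22d3, both textbook targets of the glucocorticoid receptor, were lower in every hHKDC1 OE library than in any null library of the same tissue. Fkbp5 was at 117, 165 and 168 CPM in null liver against 47.2, 103 and 35.7 CPM, and at 174, 287 and 320 CPM in null fat against 70.5, 140 and 49.7 CPM. Tsc22d3 was at 236, 251 and 154 CPM in null liver against 107, 137 and 54.9 CPM, and at 323, 354 and 352 CPM in null fat against 132, 222 and 104 CPM. In both tissues and for both genes, hHKDC1 OE replicate 2 was the closest to the null libraries. The mean effects were -1.42 ± 0.30 and -1.12 ± 0.24 (adjusted p = 0.0913 and 0.0924, edgeR).

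The 14 glucocorticoid response genes tested in both tissues had a median log2 fold change of -0.50 in liver and -0.80 in fat, beside medians of 0.00 and -0.04 over all 12763 genes. In liver 13 of the 14 were lower and 5 had an unadjusted p under 0.05, in fat 14 were lower and 7 had it, and for the mean effect 9 had it, all lower, against 6.76%, 17.7% and 15.7% of all genes in either direction. Leaving out hHKDC1 OE liver replicate 2 moved the liver median to -1.15, with 10 of 14 at an unadjusted p under 0.05 and 3 of 14 higher, and leaving out hHKDC1 OE fat replicate 2 moved the fat median to -1.31, with 12 of 14. None of the 14 was predicted from liver RNA. Cebpd, a transcription factor induced by glucocorticoids, was at 62.7, 68.3 and 93.0 CPM in null fat against 20.4, 38.4 and 27.0 CPM, but in liver the libraries overlapped, with a log2 fold change of -0.42 ± 0.23. Cdkn1a, an inhibitor of the cell cycle, was at 6.42, 8.86 and 33.1 CPM in null liver against 0.922, 2.66 and 1.71 CPM, whereas in fat 1 hHKDC1 OE library overlapped the null libraries. Dusp1 was the exception to the shared sign, with 0.76 ± 0.36 in liver and -0.34 ± 0.24 in fat. Setting aside hHKDC1 OE fat replicates 1 and 3, the libraries with most lymphocyte RNA, left 1 hHKDC1 OE fat library, so medians from it are given here with no test, and this choice was made after the data were seen. The glucocorticoid median in fat was then -0.49, with 11 of 14 lower.

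**Figure D3:**
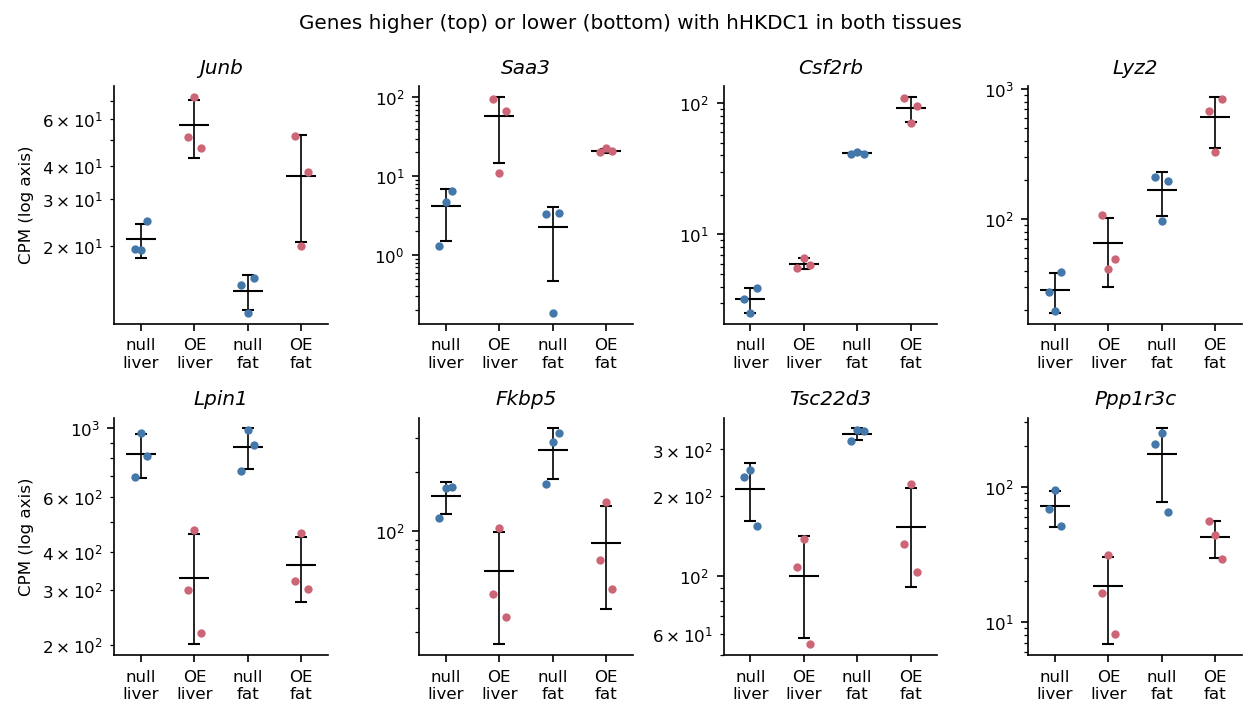
CPM (log axes) of 4 genes higher (top) and 4 genes lower (bottom) with hHKDC1 in liver and in fat, 1 point per library, with the mean as a bar and the SD of 3 libraries as whiskers. In each panel the red hHKDC1 OE points lie on the same side of the blue null points in both tissues, as for Tsc22d3, at most 137 against at least 154 CPM in liver and at most 222 against at least 323 CPM in fat.

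Promoter sequence is shown for 2 genes lower in both tissues, 1 gene higher in both, 1 gene of opposite directions and 2 genes of antigen presentation that stood higher in fat, so that what these sets share and lack can be read from the letters. Each is the 250 bases before the transcription start in RefSeq on GRCm38.p6, written from 5′ to 3′ on the strand of the gene, and capitals mark the motifs searched on both strands: CACGTG, the E-box of clock and nutrient-sensing factors, TGACGTCA, the cAMP response element, CCAAT, bound by NF-Y, and TTCCNGGAA, a STAT site. The sequences are Fkbp5 at chr17:28486150-28486399 (minus strand), Ppp1r3c at chr19:36736605-36736854 (minus), Junb at chr8:84978749-84978998 (minus), Klf2 at chr8:72318812-72319061 (plus), H2-Aa at chr17:34287824-34288073 (minus) and H2-Eb1 at chr17:34305617-34305866 (plus).
Fkbp5: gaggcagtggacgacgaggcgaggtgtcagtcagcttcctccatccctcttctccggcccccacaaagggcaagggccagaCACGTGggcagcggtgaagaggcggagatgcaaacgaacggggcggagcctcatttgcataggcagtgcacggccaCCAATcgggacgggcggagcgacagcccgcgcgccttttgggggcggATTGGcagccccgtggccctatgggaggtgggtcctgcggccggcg
Ppp1r3c: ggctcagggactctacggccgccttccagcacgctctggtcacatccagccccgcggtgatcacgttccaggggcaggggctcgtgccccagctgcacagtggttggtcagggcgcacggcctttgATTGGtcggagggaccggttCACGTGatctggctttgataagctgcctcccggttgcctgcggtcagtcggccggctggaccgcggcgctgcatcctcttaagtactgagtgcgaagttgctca
Junb: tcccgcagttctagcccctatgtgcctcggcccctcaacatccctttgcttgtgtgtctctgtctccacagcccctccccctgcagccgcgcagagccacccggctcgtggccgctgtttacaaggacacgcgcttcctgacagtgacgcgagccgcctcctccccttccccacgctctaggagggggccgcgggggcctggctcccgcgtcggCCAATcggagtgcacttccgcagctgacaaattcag
Klf2: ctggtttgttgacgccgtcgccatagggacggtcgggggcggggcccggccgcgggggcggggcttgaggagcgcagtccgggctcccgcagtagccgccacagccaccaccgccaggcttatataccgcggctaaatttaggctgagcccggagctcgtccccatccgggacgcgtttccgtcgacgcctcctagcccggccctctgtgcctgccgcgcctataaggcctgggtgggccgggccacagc
H2-Aa: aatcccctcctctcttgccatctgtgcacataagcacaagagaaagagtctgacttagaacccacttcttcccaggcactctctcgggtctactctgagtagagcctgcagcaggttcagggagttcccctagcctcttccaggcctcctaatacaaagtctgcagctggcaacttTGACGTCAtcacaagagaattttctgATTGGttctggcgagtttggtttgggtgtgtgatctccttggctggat
H2-Eb1: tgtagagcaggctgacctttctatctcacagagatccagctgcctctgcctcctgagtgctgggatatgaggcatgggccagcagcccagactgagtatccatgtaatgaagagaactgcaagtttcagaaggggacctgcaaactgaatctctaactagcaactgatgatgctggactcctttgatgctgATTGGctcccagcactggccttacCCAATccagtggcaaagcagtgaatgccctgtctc
Fkbp5 and Ppp1r3c each hold an E-box, 169 and 104 bases before the start, and CCAAT letters, whereas Klf2 holds none of the 4 motifs in this window. Of the 10 genes named as lower in both tissues, 8 were in the promoter table and 3 of them (Fkbp5, Ppp1r3c and Rhobtb1) held an E-box, of the 10 named as higher in both, 8 were in the table and 0 held one, and of the 10 named as lower in liver and higher in fat, 8 were in the table and 2 (Cib1 and Lfng) held one. The 10 named as higher in liver and lower in fat were all in the table and 0 held one, and of the 14 glucocorticoid response genes, 12 were in the table and 4 held one. Counted per gene, E-box letters are in 6.86% of the 27025 genes of the table and CCAAT in 37.5%. Counted per promoter, E-box letters are in 6.02% of all 32851 promoters of this length, the cAMP response element in 1.55%, CCAAT in 33.8% and the STAT site in 0.913%. CCAAT was found for 4 of the 4 class II histocompatibility genes in the table, H2-Aa, H2-DMa, H2-DMb1 and H2-Eb1. A match describes the letters only.

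Genes lower in liver and higher in fat included transcription factor and receptor genes of lymphocytes, some of them also expressed in endothelium. Klf2, a transcription factor of endothelium and resting lymphocytes, was at 13.3, 20.1 and 14.4 CPM in null liver against 5.596, 9.10 and 5.44 CPM, and at 59.6, 65.4 and 73.2 CPM in null fat against 154, 91.8 and 123 CPM. Neither tissue had an overlap. The log2 fold changes were -1.24 ± 0.26 and 0.89 ± 0.21, and their difference of 2.22 ± 0.35 had the smallest interaction p of the genes named (3.17e-05 unadjusted), with an adjusted p of 0.139 in edgeR. That adjusted p ran from 1.83e-05 to 0.585 over 24 alternatives and was under 0.05 in 4.

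Ets1, a transcription factor of lymphocytes and endothelium, was at 15.1, 14.01 and 18.1 CPM in null liver against 6.70, 12.3 and 9.01 CPM, and at 70.5, 65.7 and 72.5 CPM in null fat against 251, 97.2 and 234 CPM. Lfng, a glycosyltransferase that modifies Notch receptors, was at 2.22, 4.10 and 4.71 CPM in null liver against 1.48, 1.60 and 1.76 CPM, and at 23.4, 16.5 and 20.8 CPM in null fat against 59.4, 37.7 and 39.2 CPM. Il2rb, a chain of the interleukin-2 receptor of T and natural killer cells, was at 2.47, 3.84 and 2.604 CPM in null liver against 1.35, 1.65 and 0.640 CPM. In fat it was at 4.68, 5.39 and 9.74 CPM against 83.9, 11.1 and 74.8 CPM, high in the same 2 libraries as the B and T cell genes. The interactions were 2.32 ± 0.44, 2.43 ± 0.40 and 4.47 ± 0.90. Each of the 10 genes named here kept the sign of its interaction with hHKDC1 OE fat replicates 1 and 3 left out (1 library left). That was largely fixed by their choice, since groups that did not overlap were required. The part of lymphocytes in the fat libraries was not tested.

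The other genes named for a lower level in liver and a higher one in fat, by groups that did not overlap, were Traf2, an adaptor of tumour necrosis factor receptors, Cnr2, the cannabinoid receptor of immune cells, Fscn1, an actin-bundling protein, Cib1, a calcium-binding protein, Fxyd5, a regulator of the sodium pump, and Cyfip2, a regulator of actin assembly. Their log2 fold changes ran from -1.05 to -0.25 in liver and from 0.84 to 3.64 in fat. In liver only Fscn1 of the 6 had an unadjusted p under 0.05, so the other 5 are not among the 48 genes counted above. In fat, hHKDC1 OE replicate 2 was the lowest of the 3 hHKDC1 OE libraries for each of these 6 genes.

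Genes higher in liver and lower in fat were led by Peg3, Mturn and Arrdc3. Peg3, an imprinted zinc finger gene, was at 1.67, 2.35 and 2.36 CPM in null liver against 4.61, 6.28 and 5.12 CPM, and at 75.9, 122 and 113 CPM in null fat against 34.4, 63.2 and 26.4 CPM. The log2 fold changes were equal in size, 1.33 ± 0.29 and -1.33 ± 0.35, and the interaction was -2.58 ± 0.44 (adjusted p = 0.139, edgeR). Arrdc3, an arrestin domain protein that takes part in receptor trafficking, was at 56.0, 38.7 and 14.3 CPM in null liver against 156, 78.7 and 63.7 CPM. In fat it was at 123, 135 and 144 CPM against 28.0, 49.4 and 40.6 CPM, and its interaction was -3.14 ± 0.63. Ptpn3, a tyrosine phosphatase, was at 25.1, 21.3 and 24.7 CPM in null liver against 44.6, 26.1 and 36.5 CPM, and at 29.0, 27.1 and 14.7 CPM in null fat against 9.33, 8.60 and 10.8 CPM.

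Mturn, a regulator of neuronal progenitor maturation, stood near 1 CPM in null liver (0.988, 0.977 and 0.992 CPM) against 2.21, 1.81 and 2.03 CPM, and at 167, 192 and 166 CPM in null fat against 81.7, 143 and 81.6 CPM. Orm3, an orosomucoid whose near-identical neighbours Orm1 and Orm2 can share its reads, had 2.39 ± 0.56 in liver and -1.52 ± 0.39 in fat. The rest of the 10 were Fam160a1, Myo9a, an unconventional myosin, Fyco1, an adaptor of autophagosome transport, Zfc3h1, a factor of nuclear RNA decay, and Pigc, an enzyme of glycolipid anchor synthesis, with interactions from -1.997 to -0.89 and adjusted p from 0.139 to 0.149 in edgeR. Myo9a, at -0.43 ± 0.20 in fat, did not reach an unadjusted p under 0.05 there and is not among the 48.

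**Figure D4:**
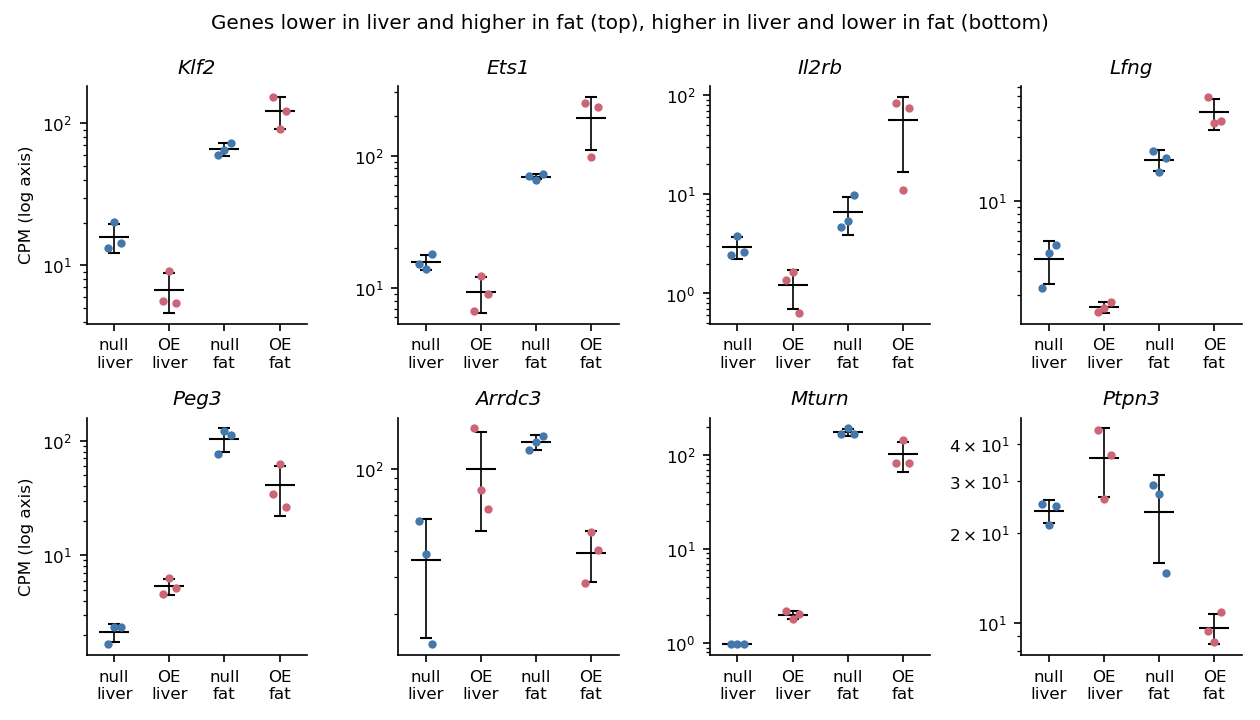
CPM (log axes) of 4 genes lower in liver and higher in fat (top) and 4 genes higher in liver and lower in fat (bottom) with hHKDC1, 1 point per library, with the mean as a bar and the SD of 3 libraries as whiskers. Red hHKDC1 OE points lie on opposite sides of the blue null points in the 2 tissues, as for Peg3, at least 4.61 against at most 2.36 CPM in liver and at most 63.2 against at least 75.9 CPM in fat.

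Some genes differed in liver while fat stayed within 0.3 of 0 on the log2 scale. Atp11a, a phospholipid flippase, was at 9.26, 8.403 and 10.4 CPM in null liver against 25.7, 16.9 and 23.4 CPM, a log2 fold change of 1.23 ± 0.20, beside -0.15 ± 0.14 in fat. Enho, which codes for the secreted peptide adropin, was at 2.22, 3.26 and 5.58 CPM in null liver against 74.1, 7.23 and 32.3 CPM, and at 4.92, 5.39 and 7.44 CPM in null fat against 4.17, 6.01 and 5.90 CPM. Slc41a1, a magnesium transporter, was the third that stood higher in liver, with 1.26 ± 0.29. Inhbb, which codes for an activin subunit, was lower at 3.71, 5.28 and 3.47 CPM in null liver against 0.799, 1.60 and 0.747 CPM, while its level in fat, 66.1 to 88.8 CPM in null and 55.3 to 101 CPM in hHKDC1 OE, overlapped. Sox18, an endothelial transcription factor, and Spon1, a matrix protein, were also lower, with -1.17 ± 0.32 and -2.24 ± 0.55 in liver. The interactions of these 6 genes had adjusted p from 0.139 to 0.152 in edgeR.

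Genes that differed in fat while liver stayed within 0.3 of 0 included lymphocyte genes. Tcf7, a T cell transcription factor, was at 2.01, 2.05 and 2.94 CPM in null fat against 143, 9.78 and 156 CPM, and Cd4, the helper T cell co-receptor, at 0.851, 0.868 and 1.93 CPM against 70.6, 5.03 and 65.7 CPM. Coro1a and Cotl1, actin regulators abundant in leukocytes, had log2 fold changes of 4.21 ± 0.80 and 2.74 ± 0.49 in fat, and Rpl21, a ribosomal protein with processed copies that can share its reads, 1.94 ± 0.35. In liver all 5 overlapped between the groups. The interactions ran from 2.12 to 5.77, and the T cell genes of the marker list moved with them. Cib1, named above among the genes of opposite direction, also met this definition.

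Fatty acid oxidation genes were lower with hHKDC1 in liver, and acute-phase genes higher. All 20 genes of fatty acid oxidation and PPAR alpha, the nuclear receptor that induces them in fasting, were lower in liver, 10 of them at an unadjusted p under 0.05 beside 6.76% of all genes, with a median of -0.48 on the log2 scale. In fat 12 of the 20 were lower, 4 at an unadjusted p under 0.05 beside 17.7% of all genes, which is near this share, with a median of -0.11 that turned to 0.04 by library size alone, and 4 of the 20 were predicted from liver RNA there. The interaction had an unadjusted p under 0.05 for 4 genes, all with the lower effect in liver, against 12.7% of all genes in either direction, and for 1 without null fat replicate 3. These were Ehhadh, of peroxisomal oxidation, at 347, 402 and 376 CPM in null liver against 150, 249 and 191 CPM and at 47.9, 51.3 and 66.0 CPM in null fat against 55.1, 45.3 and 92.9 CPM, and Acot2, Hadhb and Slc25a20, of mitochondrial thioester hydrolysis, beta-oxidation and acylcarnitine transport, with interactions of 1.43 ± 0.53, 0.80 ± 0.28 and 0.69 ± 0.23. Of 77 nuclear genes of oxidative phosphorylation, 72 were lower in liver with 0 at an unadjusted p under 0.05 and a median of -0.14, and 52 were higher in fat with 5, below the 17.7% of all genes, and a median of 0.12, which turned to -0.07 without hHKDC1 OE fat replicates 1 and 3.

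Among 19 acute-phase genes, 12 had an unadjusted p under 0.05 in liver, all higher, with a median of 1.34, beside 6.76% of all genes. In fat 5 were higher and 1 lower at that p, with a median of 0.14, beside 17.7% of all genes, but 13 of the 19 were predicted from liver RNA there. Of the 6 that were not, 4 had it in liver and 1 in fat, which was Saa3. The median of the 19 in fat turned to -0.36 without hHKDC1 OE fat replicates 1 and 3. The interaction was lower than 0 for all 19, with 2 at an unadjusted p under 0.05, a share below the 12.7% of all genes, and with 6 without hHKDC1 OE liver replicate 2 or 5 without hHKDC1 OE fat replicate 2. Orm1 was 1 of them, at 547, 491 and 543 CPM in null liver against 3262, 867 and 2267 CPM and at 182, 251 and 354 CPM in null fat against 155, 269 and 151 CPM. Hp, the haemoglobin scavenger haptoglobin, had 1.31 ± 0.40 in liver and 0.22 ± 0.39 in fat.

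Genes of translation, antigen presentation and cell division stood higher with hHKDC1 in fat. Of 78 cytosolic ribosomal protein genes, 72 were higher in fat at an unadjusted p under 0.05 (17.7% of all genes in either direction) with a median of 1.27, whereas in liver 0 had it with a median of -0.02, and 71 had it for the interaction (12.7% of all genes). Their CPM summed to 13056, 13115 and 14488 in null fat and to 37433, 16488 and 40068 in hHKDC1 OE fat, so that replicate 2 stood close to the null libraries. The median in fat was 0.32, with 70 of 78 higher, when replicates 1 and 3 were set aside. All 7 class II histocompatibility genes, which present antigen to helper T cells, were lower in liver, 1 at an unadjusted p under 0.05, and higher in fat, 7 at that p, and all 7 had it for the interaction. The shares of all genes were 6.76%, 17.7% and 12.7%. H2-Aa was at 11.8, 32.0 and 40.3 CPM in null liver against 12.9, 20.7 and 10.5 CPM and at 177, 113 and 263 CPM in null fat against 784, 358 and 606 CPM, and H2-Ab1 had an interaction of 2.65 ± 0.67. The median of the 7 in fat went from 1.66 to 0.96 without these libraries, and all 7 were still higher.

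Of 18 cell cycle genes, 13 were higher in fat at an unadjusted p under 0.05 (17.7% of all genes), with a median of 1.45. In liver 1 was lower at that p, near the 6.76% of all genes, with a median of -0.18. Mcm3, a subunit of the replicative helicase, was at 10.03, 7.50 and 9.36 CPM in null fat against 38.3, 12.3 and 37.8 CPM and had -0.52 ± 0.28 in liver. With hHKDC1 OE fat replicates 1 and 3 set aside the median in fat was 0.26, with 16 of 18 higher. Of 21 interferon-stimulated genes, 7 were higher in fat at that p (17.7% of all genes), 14 by library size alone and 16 without hHKDC1 OE fat replicate 2, and 0 had it in liver (6.76%). The median in fat went from 0.92 to -0.06 without the same 2 libraries. The B and T cell genes stood high in these 2 libraries, and their part in the 4 lists was not tested.

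**Figure D5:**
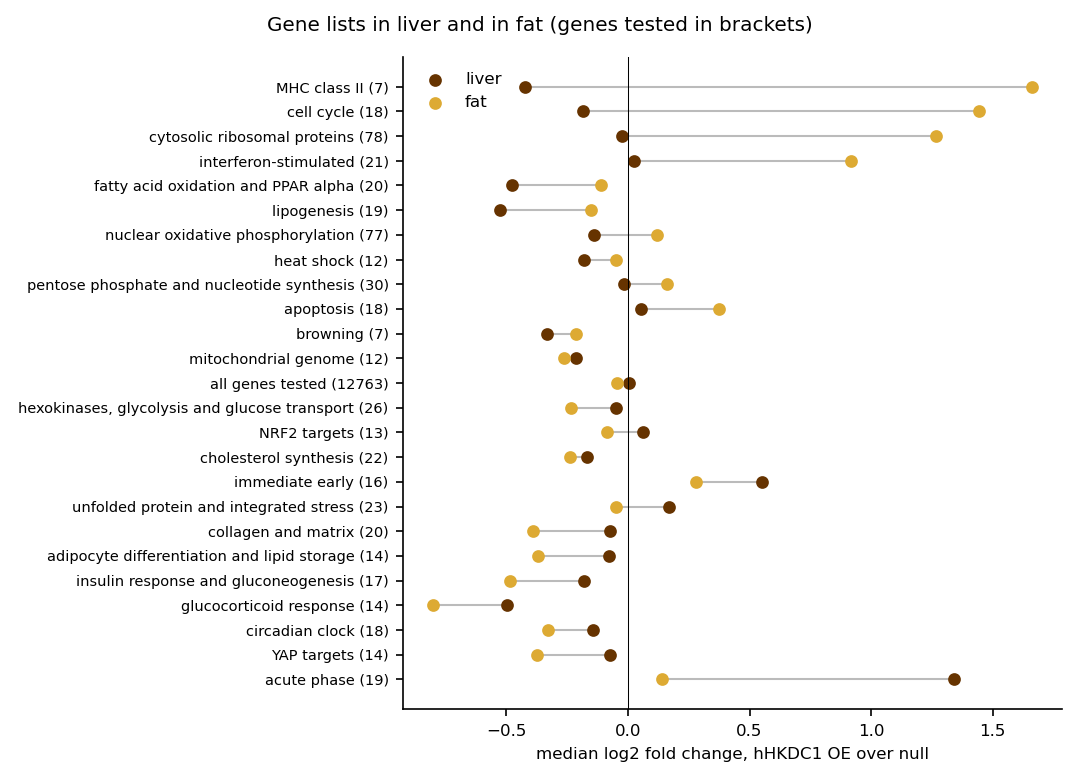
Median log2 fold change of hHKDC1 OE over null for each gene list in liver (brown) and in fat (yellow), with the number of genes tested in both tissues in brackets and the lists in the order of their median interaction. Class II histocompatibility genes have medians of -0.42 in liver and 1.66 in fat, the glucocorticoid response list is below 0 in both, and the acute-phase list is at 1.34 in liver and 0.14 in fat.

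The remaining lists are read beside the 6.76% of all genes in liver and 17.7% in fat that had an unadjusted p under 0.05 in either direction. Of 16 immediate early genes, 4 were higher and 2 lower in liver and 6 higher in fat at an unadjusted p under 0.05. In fat 3 were also lower without hHKDC1 OE fat replicate 2 and 2 without null fat replicate 3, and the liver median went from 0.55 to 0.08 without hHKDC1 OE liver replicate 2. Besides Junb and Klf2, Jun, a partner of Junb in AP-1, was at 18.0, 16.2 and 30.9 CPM in null liver against 39.3, 75.3 and 31.7 CPM and had -0.46 ± 0.29 in fat, an interaction of -1.54 ± 0.50. Of 17 genes of insulin response and gluconeogenesis, 14 had the same sign in both tissues, 4 were lower in liver, and 6 were lower and 1 higher in fat at an unadjusted p under 0.05. Without genes predicted from liver RNA, 12 of the 17 remained, with 2 lower in liver and 4 lower and 1 higher in fat at that p. Foxo3, a transcription factor held back by insulin, had -0.35 ± 0.15 in liver and -0.57 ± 0.15 in fat. Of 19 lipogenesis genes, 4 were lower in each tissue, in fat a share near that of all genes, and 0 had an unadjusted p under 0.05 for the interaction. Leaving out hHKDC1 OE liver replicate 2 gave 8 lower in liver and 3 for the interaction, leaving out hHKDC1 OE fat replicate 2 gave 8 lower in fat, and the fat median of -0.15 turned to 0.01 by library size alone. Of 23 genes of the unfolded protein and integrated stress responses, 6 were higher in liver, and 3 were higher and 1 lower in fat, again near the share of all genes, and Sdf2l1, an endoplasmic reticulum chaperone cofactor, was higher in both, at 1.31 ± 0.33 and 1.21 ± 0.41.

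Of 18 clock genes, 2 were higher and 1 lower in liver and 6 lower in fat at that p, and 14 had the same sign. Leaving out hHKDC1 OE liver replicate 2 turned the split in liver to 0 higher and 3 lower. Cry1, a repressor of the clock, was at 18.3, 15.4 and 17.4 CPM in null liver against 10.5, 6.86 and 7.89 CPM, beside -0.20 ± 0.20 in fat. Per3, another repressor, had 0.34 ± 0.17 in liver and -0.74 ± 0.19 in fat. Of 22 genes of cholesterol synthesis and its control, Srebf2, their transcriptional regulator, had opposite directions, at -0.36 ± 0.13 in liver and 0.65 ± 0.23 in fat, and 2 were lower in liver and 1 lower in fat. Leaving out hHKDC1 OE fat replicate 2 gave 7 cholesterol genes and 9 clock genes lower in fat. Of 12 heat shock genes, 9 were lower in liver, and 1 was higher and 2 lower at an unadjusted p under 0.05 in each tissue. The 1 higher in liver was Hspb1, at 0.91 ± 0.25, with -0.50 ± 0.21 in fat. The medians of the lists for hexokinases, glycolysis and glucose transport, NRF2 targets, YAP targets, collagen and matrix, apoptosis, browning, adipocyte differentiation, the mitochondrial genome, and pentose phosphate and nucleotide synthesis lay between -0.33 and 0.06 in liver and between -0.39 and 0.37 in fat. Single libraries moved several of them. Without hHKDC1 OE fat replicate 2 the fat median of the 20 collagen and matrix genes went from -0.39 to -1.19 with 14 lower at an unadjusted p under 0.05, that of the 14 YAP targets from -0.37 to -0.73 with 8 lower, that of the 12 genes of the mitochondrial genome from -0.26 to -0.02, and that of the 7 browning genes, of which 2 were higher and 0 lower in fat at that p, from -0.21 to 0.09. Without null fat replicate 3 the fat median of the mitochondrial genome was -0.52. When hHKDC1 OE fat replicates 1 and 3 were set aside the collagen median turned to 0.43, and the medians were -0.90 for the mitochondrial genome, -0.02 for YAP targets and -0.73 for browning. Ucp1, the uncoupling protein of thermogenic fat, is not among the 7 because it was too low to be tested in liver, and in fat it was at 0.122, 1.24 and 0.0535 CPM in null against 72.4, 4.45 and 20.8 CPM, with no overlap and a log2 fold change of 6.12 ± 1.37 (adjusted p = 0.133, edgeR).

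Gapdh of the glycolysis list shared the smallest adjusted p in liver and was treated as uncertain. It was at 2.66, 7.49 and 6.20 CPM in null liver against 139, 54.5 and 63.0 CPM (adjusted p = 0.0573, edgeR), and at 17.5, 18.5 and 4.60 CPM in null fat against 230, 3.76 and 31.1 CPM. Gapdh has many processed copies in the mouse genome that can take its reads, and whether read assignment differed between these libraries was not tested.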

How the data were processed

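RNA from 6 liver samples and 6 subcutaneous fat samples was sequenced by the authors as non-stranded libraries. Per the submitters' processing notes, reads were aligned with STAR 2.5 and counted per gene with HTSeq 0.6.1. The methods name a human reference genome, whereas the gene identifiers are those of mouse. The deposited gene counts, not normalised, were used as the only measurement. The authors' FPKM values and their tables of fold changes and p-values were not used.

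Counts were scaled by TMM and given as CPM, the count in a library relative to its scaled total. Liver and fat were each fitted alone, and all 12 libraries together for the interaction (the fat effect minus the liver effect) and for the mean of both effects, with the quasi-likelihood test of edgeR 4.0.16 in R 4.3.3, two-sided, after edgeR's filter on low counts. P-values were adjusted over all genes of a fit by Benjamini-Hochberg, with a threshold of 0.05. The code was tested on simulated data. Alternatives used DESeq2 1.42.0, limma 3.58.1 with sample weights, other scalings and filters, single libraries left out and blocks for the replicate number. The study gives 3 mice per group for the fat libraries, and for liver, where the labels do not say that libraries came from separate mice, p-values measure the spread between these libraries. Replicates differed by more than counting noise.

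Named genes were protein coding, unique in symbol, at 1 CPM or more in each tissue and not predicted from liver RNA, with groups that did not overlap. For each shared direction the 10 with the smallest larger p of both tissues were taken, and for each opposite direction, and for the 6 per tissue with the other tissue within 0.3 of 0, those with the smallest interaction p. Genes passing the threshold and members of gene lists were also named. The members and lists were chosen with earlier results of these data known. Reads of overlapping genes, of antisense genes and of near-identical copies cannot be told apart. Hkdc1 of the transgene was not analysed here.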

Additional observations from a re-analysis of the deposited data

How the results depend on the processing

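The counts of genes at an adjusted p under 0.05 were 0 in liver, 0 in fat, 0 for the interaction and 7 for the mean effect, and 180 genes shared a direction and 48 did not at an unadjusted p under 0.05 in each tissue. In that order the 6 counts were 26, 2410, 1117, 1470, 470 and 265 with limma and sample weights, and 327, 803, 479, 674, 312 and 117 without the filter on low counts. DESeq2 gave 90, 1303, 495 and 809 for the first 4. Library size alone gave 2 genes in liver, a minimum of 10 counts gave 19 for the mean effect, and 1 fit of all 12 libraries gave 876 in fat. At an adjusted p under 0.1 there were 2 genes in liver and 210 for the mean effect, and at an unadjusted p under 0.01 the directions were shared by 31 genes and opposite for 4. Without genes predicted from liver RNA the mean effect had 3. Without hHKDC1 OE fat replicates 1 and 3, chosen after the data were seen, it had 3, with 74 shared and 20 opposite directions, but this leaves 1 hHKDC1 OE fat library, which is assumed to vary like the other groups, and fewer calls are given by fewer libraries alone.

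Leaving out 1 library at a time gave 0 to 146 genes in liver, 0 to 3251 in fat, 0 to 1211 for the interaction and 0 to 1501 for the mean effect, with 123 to 271 shared and 27 to 112 opposite directions. The cause was not tested. With the replicate number as a block there were 17 genes in liver, 168 in fat, 0 for the interaction and 56 for the mean effect, and with a block for tissues of the same vector and number 4 for the interaction. Liver and fat libraries of the same number and vector deviated together with correlations of -0.00226 to 0.213, so the numbers were not taken to pair the libraries, and not every library correlated best with its own number.

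For 83 results on named genes under 1943 alternatives, direction and side of the threshold were kept in 1595, 293 passed the threshold where the reported value did not, 55 no longer passed it and 0 changed sign. Many of these genes were chosen for groups that did not overlap, so their kept signs are largely given by that choice. Total counts of 15496019 or more left genes such as mouse Hkdc1 below the filter.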
